A study of Homo sapiens with 12 samples.

Results

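The circadian clock genes described here are NR1D1, NR1D2, PER1, PER2, PER3, CRY1, CRY2, CLOCK, DBP and BHLHE40. They were taken by gene symbol, and these 10 of the 26485 annotated genes all passed the filter on low counts that left 14865 genes for testing. The cells were OVCAR8, a human ovarian carcinoma line in long use that the study lists as Ras-mutant, grown in RPMI medium with serum. Cells received vehicle (control), EC359 at 150 nM, trametinib at 100 nM, or both agents at these doses (combination), each for 7 h, and polyadenylated RNA of 3 samples per condition was sequenced, giving 12 libraries. EC359 is a small-molecule inhibitor of the leukemia inhibitory factor receptor, and trametinib inhibits the kinase MEK. The sources used here give no step that set the clocks of the cells to a common phase and no hour of collection, so each value is an average over the culture at a single time after treatment. The labels do not say whether the 3 samples of a condition were separate cultures, and the p-values then measure only the spread between these samples.

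The circadian clock is a transcriptional feedback loop found in most cells of the body. CLOCK pairs with ARNTL (BMAL1) and binds E-box sequences in the promoters of PER and CRY genes, whose proteins return to the nucleus and inhibit the pair. NR1D1 and NR1D2 encode the nuclear receptors REV-ERB alpha and REV-ERB beta, which form another arm of the loop by repressing ARNTL and competing with the activating ROR receptors. DBP is an E-box-driven activator of output genes through D-box sequences, and BHLHE40 (DEC1) is a repressor that competes for E-boxes. PER1, NR1D1 and BHLHE40 are also known to respond quickly to signals from outside the clock.

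Depth ranged from 24790392 to 32467283 counts per library. Log2 CPM, which are read counts scaled to library size, correlated across genes, which are not independent replicates, with Pearson's r of 0.993 to 0.994 between libraries of a condition and 0.962 to 0.989 between conditions. DUSP6, a target of ERK that serves as a check of MEK inhibition, averaged 4.08 ± 0.385 CPM in control libraries, 14.9 ± 0.26 CPM in EC359 libraries, 0.0953 ± 0.0836 CPM in trametinib libraries and 1.54 ± 0.387 CPM in combination libraries (SD, n = 3 each). Of 9 markers of ovarian carcinoma, KRT19, MUC16 and CDH1 stayed below 1 CPM in all libraries, and the sum of the 9 lay between 3580 and 4100 CPM. KRT8, KRT18 and KRT7, at mean levels of 1930, 1050 and 976 CPM in control, made up most of this sum. KRT18 was at 794 CPM with trametinib. From control to the combination, mean PAX8 went from 75.8 to 122 CPM and WT1 from 4.36 to 2.45 CPM. EPCAM was at 11.4 CPM in both. Of 8 markers of blood, endothelial and stromal cells, all but the collagen gene COL1A1 stayed below 1 CPM and 3 were at 0 throughout. COL1A1 moved with treatment, at 427 ± 10.5 CPM in control libraries, 226 ± 6.44 CPM in EC359 libraries, 518 ± 5.93 CPM in trametinib libraries and 324 ± 10.9 CPM in combination libraries (SD, n = 3 each). Its part in the results below was not tested.

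The E-box and D-box sequences through which these genes act on each other were searched for in the 250 bases before each RefSeq start site of the 10 genes (14 start sites, build GRCh38.p14), on both strands. The canonical E-box CACGTG was present for 3 genes, NR1D2, PER1 and BHLHE40. The variant E'-box CACGTT was present for 5, NR1D1, PER2, CRY1, CRY2 and CLOCK. The D-box TTATGTAA was present for 2, NR1D2 and PER3. Over all 35116 RefSeq windows of this length the 3 motifs occurred in 6.34%, 4.55% and 0.834%. Here and for the further motifs below, these shares are per window while the counts are per gene. NR1D2, PER3, CRY2 and CLOCK have more windows than the other genes, so the shares are not directly comparable with the counts. The 30 bases around each of these matches follow, 5′ to 3′ on the strand of the gene with the motif in capitals. A motif on the opposite strand appears as its reverse complement.
NR1D1, E'-box 168 bases before the start, chr17:40100740-40100769, minus strand: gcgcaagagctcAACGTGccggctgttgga
NR1D2, E-box 155 bases before the start, chr3:23945954-23945983, plus strand: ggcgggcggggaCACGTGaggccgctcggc
NR1D2, E-box 105 bases before the start, chr3:23946004-23946033, plus strand: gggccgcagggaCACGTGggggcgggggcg
NR1D2, D-box 194 bases before the start, chr3:23945916-23945945, plus strand: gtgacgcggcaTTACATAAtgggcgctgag
PER1, E-box 173 bases before the start, chr17:8152560-8152589, minus strand: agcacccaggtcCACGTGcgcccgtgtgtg
PER2, E'-box 197 bases before the start, chr2:238288790-238288819, minus strand: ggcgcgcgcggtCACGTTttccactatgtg
PER3, D-box 177 bases before the start, chr1:7784103-7784132, plus strand: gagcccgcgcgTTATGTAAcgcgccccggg
CRY1, E'-box 89 bases before the start, chr12:107093621-107093650, minus strand: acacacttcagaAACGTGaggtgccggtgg
CRY2, E'-box 188 bases before the start, chr11:45847275-45847304, plus strand: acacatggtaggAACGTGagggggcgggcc
CLOCK, E'-box 187 bases before the start, chr4:55546102-55546131, minus strand: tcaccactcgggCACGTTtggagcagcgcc
BHLHE40, E-box 245 bases before the start, chr3:4979187-4979216, plus strand: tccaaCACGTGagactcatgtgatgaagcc
The matches of NR1D2 all lie before the more downstream of its RefSeq start sites, and those of CRY2 and CLOCK likewise. That of PER3 lies before the more upstream of its start sites, and its other window held none of the motifs searched. For this PER3 start and for that of PER2, the 30 bases after the start were in none of the reference transcripts of the gene. Further motifs searched were the REV-ERB and ROR core site AGGTCA, found for 2 genes (PER1 and CRY2) and in 12.1% of all windows, and the cAMP response core TGACG, found for 4 genes (NR1D2, PER2, CRY1 and CRY2) and in 21.2% of all windows. The full cAMP response element TGACGTCA and the palindromic D-box TTACGTAA were found for 0 of the 10 genes, against 1.65% and 0.105% of all windows, and the first of these contains the core. The window of DBP held none of the motifs searched. A match describes letters only and is not a measured binding site.

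In vehicle-treated OVCAR8 cells the 10 genes differed widely in level. On the RPKM scale, which divides reads by exon length and library size, BHLHE40 at 33.3 ± 0.599 and CRY1 at 32.8 ± 0.811 were the highest (SD, n = 3 each), and their libraries overlapped. NR1D2 followed at 10.1 ± 0.526 RPKM, then CLOCK at 5.92 ± 0.125 and PER1 at 1.99 ± 0.0458 RPKM, each apart from its neighbors. PER3, NR1D1, CRY2 and DBP lay close together between 1.56 and 1.32 RPKM, and each of these overlapped the next. PER2 was the lowest at 0.487 ± 0.0562 RPKM. With EC359, BHLHE40 reached 131 ± 3.9 RPKM, NR1D2 at 25.9 ± 0.466 came level with CRY1 at 25.6 ± 0.125, and NR1D1 at 8.21 ± 0.248 passed CLOCK at 6.92 ± 0.217 (SD, n = 3 each). In the combination group NR1D1 was at 4.44 ± 0.38 and PER1 at 4.31 ± 0.129 RPKM, and these overlapped. PER2 was the lowest gene in every condition.

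**Figure D1:**
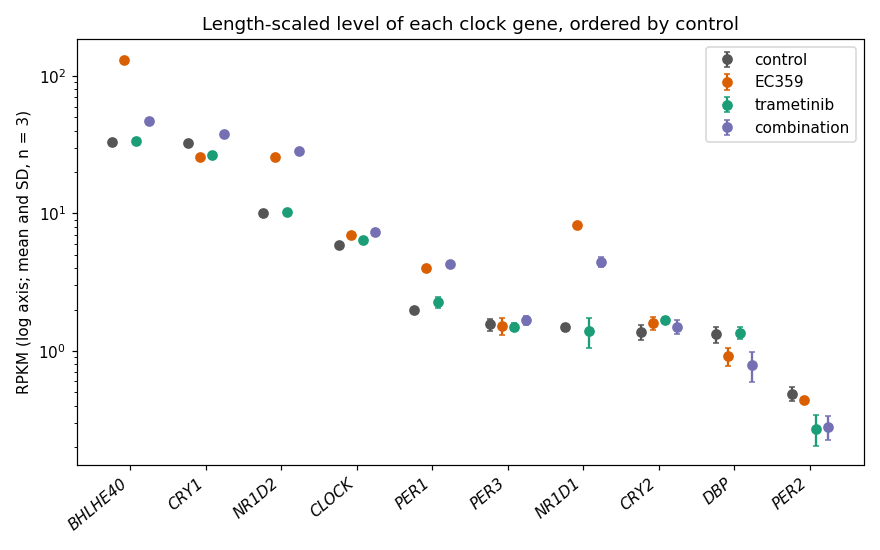
Mean RPKM with SD (3 libraries per condition, log axis) of each clock gene, ordered by its level in control. BHLHE40 and CRY1 lead in control at about the same level and PER2 is lowest at 0.487 RPKM. The EC359 points of BHLHE40, NR1D2, PER1 and NR1D1 stand above their controls.

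Compared to control, EC359 alone raised 5 of the 10 clock genes and lowered 2 when calls were made by edgeR's quasi-likelihood test with the adjusted p-value below 0.05. By the same rule 30.8% of all genes tested were higher and 30.3% were lower. The 5 genes were NR1D1, NR1D2, PER1, CLOCK and BHLHE40, and the 2 were CRY1 and DBP. At a minimum change of 2-fold, 3 were higher (NR1D1, NR1D2 and BHLHE40) and 0 were lower, against 4.19% and 2.79% of all genes. PER1, with a log2 fold change of 0.9989, lay just under that minimum and passed it in some of the fits that left out 1 library, the highest of which gave 1.01. Trametinib alone changed fewer of the genes, with 1 higher (CLOCK) and 2 lower (PER2 and CRY1), against 13.0% and 15.2% of all genes. None of the 10 reached 2-fold in this comparison, where 0.478% of all genes were higher and 0.955% were lower by that much. In the combination group 6 genes were higher and 2 were lower (PER2 and DBP), against 35.0% and 34.7% of all genes, and the 6 comprised the 5 genes raised by EC359 plus CRY1. NR1D1, NR1D2 and PER1 were at least 2-fold higher and 0 were lower by that much, against 7.27% and 5.87%. The median log2 fold change of the 10 genes was 0.22 for EC359, 0.03 for trametinib and 0.26 for the combination, while the medians of all genes were -0.01, 0.00 and -0.01. With scaling to total counts the medians of the 10 genes were 0.08, 0.05 and 0.12, and those of all genes -0.15, 0.03 and -0.14. The 3 comparisons share the same control libraries.

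**Figure D2:**
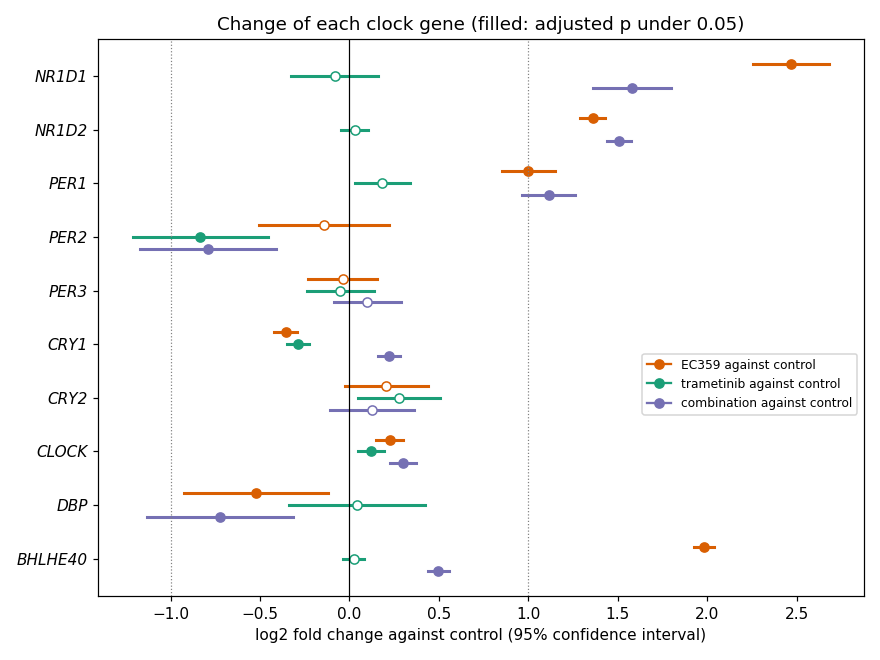
Log2 fold change against control for each clock gene with its 95% confidence interval, for EC359, trametinib and the combination. Filled points had an adjusted p-value under 0.05 and dotted lines mark a 2-fold change. NR1D1 lies farthest to the right with EC359, at 2.47, and PER2 farthest to the left with trametinib, at -0.83.

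NR1D1, on chromosome 17 from 40092784 to 40100725 in hg38, showed the largest rise of the 10 with EC359. Its libraries were at 3.96, 4.37 and 4 CPM in control, 23.2, 23.2 and 22 CPM with EC359, 4.68, 2.81 and 4.06 CPM with trametinib and 13.1, 11.1 and 12.8 CPM with the combination. All EC359 libraries lay above all combination libraries, which lay above all others, and those of trametinib and control overlapped. The rise with EC359 was 5.53-fold, a log2 fold change of 2.47 (standard error 0.1, edgeR, adjusted p = 5.75e-24). In the combination the rise was 2.99-fold (log2 fold change 1.58, standard error 0.11), and the direct comparison put the combination below EC359 by a log2 fold change of -0.89 (edgeR, adjusted p = 1.03e-10). With trametinib alone the log2 fold change was -0.08, with a 95% confidence interval from -0.32 to 0.16. Between 74 and 690 reads per library stood behind these values.
NR1D2, its paralog on chromosome 3 from 23945260 to 23980618, had 55.9, 52.3 and 58 CPM in control and 139, 145 and 142 CPM with EC359. Trametinib gave 57.7, 54.3 and 57.5 CPM, and the combination gave 155, 160 and 158 CPM. The combination libraries here lay above those of EC359, the reverse of the order seen for NR1D1. EC359 gave a log2 fold change of 1.36, with a standard error of 0.034 (edgeR, adjusted p = 2.2e-39), and the combination one of 1.51, with the same standard error (adjusted p = 7.01e-42). Compared directly, the combination exceeded EC359 by a log2 fold change of 0.15 (edgeR, adjusted p = 6.38e-05), a difference of 1.11-fold. With trametinib alone the interval of the log2 fold change ran from -0.05 to 0.10. The ratio of NR1D1 to NR1D2 per length was 0.137 to 0.166 in the control libraries, 0.306 to 0.33 with EC359, 0.103 to 0.161 with trametinib and 0.138 to 0.167 with the combination. EC359 libraries stood apart from all others in this ratio, and the other 3 conditions overlapped.

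**Figure D3:**
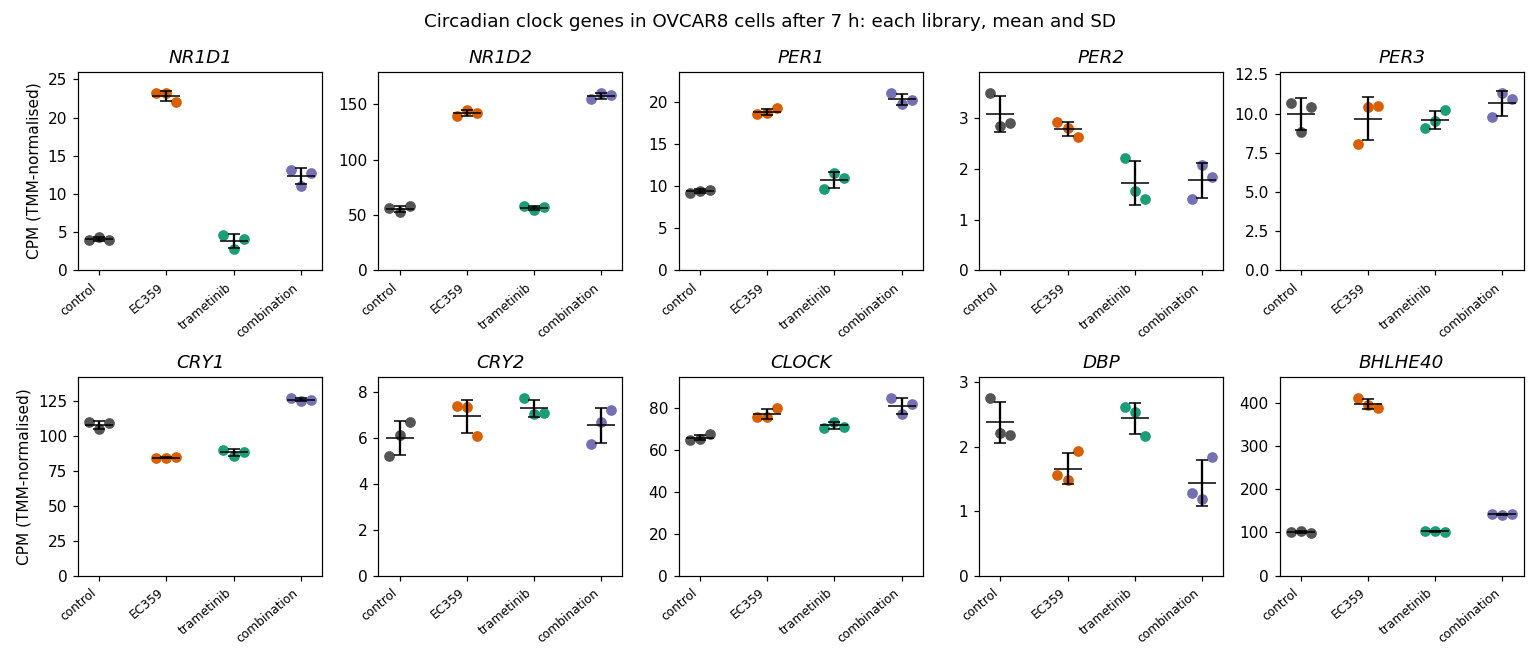
CPM of the 10 clock genes in each of the 12 libraries, by condition (points), with the mean and SD of the 3 libraries (bars), on axes that start at 0. NR1D1 and BHLHE40 peak with EC359 at 22.8 and 398 CPM, NR1D2 and PER1 are high with EC359 and the combination alike, and CRY1 is lowest with the single agents and highest with the combination.

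BHLHE40, the E-box repressor, lies on chromosome 3 from 4979412 to 4985180. It reached the highest count of any of the 10 genes in a single library, 11804 reads with EC359. Control libraries were at 100, 103 and 99.6 CPM and trametinib libraries at 103, 104 and 100 CPM. EC359 raised the gene to 411, 396 and 388 CPM, while the combination libraries were at 142, 141 and 144 CPM. The condition means were thus 3.95-fold above control with EC359 and 1.41-fold above it with the combination, and no EC359 or combination library overlapped the control range. The log2 fold changes were 1.98 (standard error 0.028, edgeR, adjusted p = 3.64e-52) and 0.50 (standard error 0.029, adjusted p = 2.89e-22). From EC359 to the combination the level fell by 1.48 on the log2 scale (edgeR, adjusted p = 1.37e-45). Trametinib alone gave a log2 fold change of 0.02, with a 95% confidence interval from -0.04 to 0.08. Its paralog BHLHE41 (DEC2) had at most 10 counts in any library and was not tested.

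The 3 PER genes, which encode the inhibitors of the CLOCK and ARNTL pair, differed in their response. PER1, on chromosome 17 from 8140470 to 8152435, was at 9.14, 9.42 and 9.57 CPM in control, 18.5, 18.6 and 19.2 CPM with EC359, 9.61, 11.5 and 10.9 CPM with trametinib and 21, 19.7 and 20.2 CPM with the combination. No library with EC359 in it overlapped one without. The log2 fold change was 0.9989 with EC359, standard error 0.074 (edgeR, adjusted p = 8.58e-18), and 1.11 with the combination, standard error 0.073 (adjusted p = 4.78e-20), a 2.16-fold rise. The difference between these conditions was 0.11 on the log2 scale with an interval from -0.03 to 0.25. With trametinib all 3 libraries lay above control, at a log2 fold change of 0.18 (edgeR, adjusted p = 0.0684), which passed the threshold without trametinib replicate 1 (log2 fold change 0.26, adjusted p = 0.0176). With scaling to total counts the trametinib value also passed, and the combination value of 0.97 no longer reached 2-fold.
PER2, on chromosome 2 from 238244038 to 238288566, went the other way and with the other agent. Its libraries were at 3.5, 2.85 and 2.91 CPM in control and 2.92, 2.82 and 2.64 CPM with EC359. With trametinib they were at 2.22, 1.56 and 1.4 CPM and with the combination at 1.4, 2.09 and 1.84 CPM. Every library that had received trametinib lay below every library that had not. PER2 fell by 0.83 on the log2 scale with trametinib (standard error 0.19, edgeR, adjusted p = 0.000354) and by 0.79 with the combination (standard error 0.19, adjusted p = 0.000214). With EC359 alone the log2 fold change was -0.14, with an interval from -0.51 to 0.22. These values rested on 35 to 99 reads per library. In bulk RNA, a change in how many cells carry a transcript and a change in its level per cell cannot be told apart. This holds here and for the other falls and rises.
PER3 stayed between 8.07 and 11.3 CPM in all 12 libraries, with overlapping ranges in every comparison. Its log2 fold change was -0.04 for EC359, -0.05 for trametinib and 0.10 for the combination, and the 3 intervals lay between -0.24 and 0.29. PER1 per length was 4.13 ± 0.528 times PER2 in control, 9.07 ± 0.637 times with EC359, 8.77 ± 2.56 times with trametinib and 15.9 ± 3.85 times with the combination (SD, n = 3 each). The treated libraries of each condition lay above the control range of 3.52 to 4.44.

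CRY1, which encodes the other class of inhibitor in the loop, lies on chromosome 12 from 106991365 to 107093857 and changed direction between conditions. It was at 110, 105 and 109 CPM in control, 84.2, 84 and 84.8 CPM with EC359, 90.3, 85.7 and 88.9 CPM with trametinib and 127, 125 and 126 CPM with the combination. Both single agents thus put all their libraries below control, and the combination put all of its libraries above control. The level fell by 0.36 on the log2 scale with EC359 (standard error 0.032, edgeR, adjusted p = 7.55e-15) and by 0.29 with trametinib (standard error 0.031, adjusted p = 2.74e-11). The combination raised it by a log2 fold change of 0.22, with a standard error of 0.03 (adjusted p = 4.22e-09). This rise was 0.08 with scaling to total counts (adjusted p = 0.0144). Directly compared, the combination exceeded EC359 by 0.58 and trametinib by 0.51 on the log2 scale (edgeR, adjusted p = 7.77e-23 and 1.84e-21).
CRY2, on chromosome 11 from 45847118 to 45883248, was much lower, at 5.21 to 7.74 CPM over all libraries. Its log2 fold change was 0.21 for EC359, 0.28 for trametinib and 0.13 for the combination, and none passed the threshold (edgeR, adjusted p = 0.122, 0.0638 and 0.344). The trametinib libraries all lay above control, and the call passed without control replicate 3 (adjusted p = 0.0311). The EC359 call passed without EC359 replicate 3 (adjusted p = 0.0447). CRY1 per length was 24.1 ± 3.43 times CRY2 in control, 16.2 ± 1.89 times with EC359, 16.1 ± 0.554 times with trametinib and 25.6 ± 3.17 times with the combination (SD, n = 3 each).

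CLOCK, the activator, changed little in size but in every treatment. On chromosome 4 from 55427901 to 55546909, it was at 64.8 to 67.4 CPM in control, 75.5 to 79.7 CPM with EC359, 70.3 to 73.2 CPM with trametinib and 76.9 to 84.4 CPM with the combination. Each treated range lay above control, and those of EC359 and the combination overlapped. The log2 fold changes were 0.22 for EC359, 0.12 for trametinib and 0.30 for the combination (edgeR, adjusted p = 4.64e-07, 0.0103 and 2.41e-10). The trametinib call did not pass without trametinib replicate 2 (adjusted p = 0.0616). With scaling to total counts the log2 fold changes of CLOCK with EC359 and with the combination were 0.09 and 0.16 (adjusted p = 0.0292 and 0.00014). Compared to trametinib, the combination was higher by 0.18 (edgeR, adjusted p = 2.14e-05), but by 0.02 with that scaling (adjusted p = 0.72).
DBP, the D-box activator, lies on chromosome 19 from 48630560 to 48637550 and was among the least abundant, with 32 to 84 reads per library. It was at 2.75, 2.22 and 2.18 CPM in control, 1.56, 1.48 and 1.93 CPM with EC359, 2.62, 2.54 and 2.17 CPM with trametinib and 1.28, 1.19 and 1.84 CPM with the combination. Every library that had received EC359 lay below every library that had not. DBP fell by 0.52 on the log2 scale with EC359 (standard error 0.2, edgeR, adjusted p = 0.0211) and by 0.72 with the combination (standard error 0.2, adjusted p = 0.00144). The EC359 call did not pass without control replicate 1, EC359 replicate 1 or EC359 replicate 2 (adjusted p = 0.115, 0.0611 and 0.0961). With trametinib the log2 fold change was 0.04, with an interval from -0.34 to 0.42.

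The combination was also compared with each single agent and with the sum of their log2 effects. Against EC359, 2 of the 10 clock genes were higher (NR1D2 and CRY1) and 3 were lower (NR1D1, PER2 and BHLHE40), where 24.1% and 25.2% of all genes were. Against trametinib, 6 were higher and 1, DBP, was lower, where 35.3% and 32.9% of all genes were. These 6 were NR1D1, NR1D2, PER1, CRY1, CLOCK and BHLHE40. PER2 fell by 0.65 on the log2 scale between EC359 and the combination (edgeR, adjusted p = 0.00399) and differed from trametinib by 0.04, with an interval from -0.36 to 0.44.
The interaction term, which is the departure of the combination from the summed log2 effects, passed for 3 of the 10 genes. CRY1 was higher than the sum, and NR1D1 and BHLHE40 were lower, while 14.4% of all genes were higher and 15.9% were lower. For BHLHE40 the summed effects were 2.0 and the combination had 0.50, an interaction of -1.51 (standard error 0.04, edgeR, adjusted p = 2.64e-36). For NR1D1 the sum was 2.38 against 1.58, an interaction of -0.81 (standard error 0.15, adjusted p = 5.39e-05). CRY1 had a sum of -0.65 against 0.22, an interaction of 0.87 (standard error 0.044, adjusted p = 4.56e-23). NR1D2 had an interaction of 0.12 (adjusted p = 0.0565), which passed without control replicate 2 or combination replicate 1 (adjusted p = 0.0132 and 0.0467). CRY2 had an interaction of -0.36 (edgeR, adjusted p = 0.0922), which passed without control replicate 3 or EC359 replicate 3 (adjusted p = 0.0475 and 0.0461). For PER1 the sum was 1.18 against 1.11, with an interval of the interaction from -0.28 to 0.14. The intervals of the low-count genes were wider, from -0.36 to 0.72 for PER2 and from -0.82 to 0.33 for DBP.

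**Figure D4:**
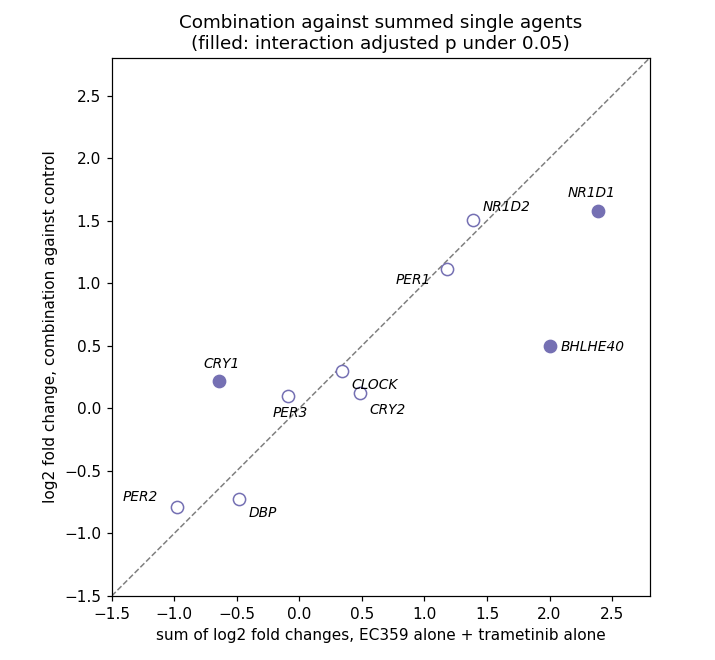
Log2 fold change of each clock gene in the combination (vertical axis) against the sum of its log2 fold changes with EC359 alone and trametinib alone (horizontal axis). The dashed line marks equality and filled points had an interaction with an adjusted p-value under 0.05. BHLHE40 (2.0, 0.50) and NR1D1 (2.38, 1.58) lie below the line and CRY1 (-0.65, 0.22) above it.

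Other factors linked to the clock were taken from a list, of which 12 annotated genes are reported here. Of these, 10 were tested, and HLF and BHLHE41 were too low. With EC359, 4 were higher and 2 were lower, near the 30.8% and 30.3% of all genes. With trametinib 2 were higher and 3 were lower, against 13.0% and 15.2%, and with the combination 5 were higher and 2 were lower, against 35.0% and 34.7%. ARNTL, the partner of CLOCK and a target of the REV-ERB repressors, was at 6.75 ± 1.39 CPM in control libraries, 6.43 ± 0.25 CPM in EC359 libraries, 7.31 ± 0.796 CPM in trametinib libraries and 7.4 ± 0.477 CPM in combination libraries (SD, n = 3 each). All its ranges overlapped control, and the log2 fold change with EC359 was -0.07. RORA, the activating receptor that shares sites with the REV-ERB proteins, rose from 2.98 ± 0.237 CPM to 17.2 ± 0.768 with EC359 and 16.3 ± 0.657 with the combination, log2 fold changes of 2.54 and 2.45 (edgeR, adjusted p = 2.98e-30 and 9.49e-30). Trametinib alone lowered it to 2.16 ± 0.124 CPM, a log2 fold change of -0.46 (adjusted p = 0.00422).
NFIL3, a repressor that acts on the D-box sites used by DBP, rose from 9.07 ± 1.08 CPM to 19 ± 0.776 with EC359 and 27.4 ± 2.34 with the combination (SD, n = 3 each). TEF, a paralog of DBP, had a log2 fold change of -0.45 with EC359 (edgeR, adjusted p = 0.0412), with libraries that overlapped control. Its values of 0.43 with trametinib and 0.15 with the combination did not pass (edgeR, adjusted p = 0.0715 and 0.488). NPAS2, which can stand in for CLOCK, fell with trametinib from 7.28 ± 0.619 to 2.82 ± 0.291 CPM and with the combination to 3.12 ± 0.249 CPM, log2 fold changes of -1.36 and -1.22 (adjusted p = 6.04e-13 and 2.95e-12). With EC359 alone it was at 7.06 ± 0.72 CPM. The ratio of CLOCK to NPAS2 per length was 3.27 ± 0.259 in control and 9.22 ± 1.16 with trametinib (SD, n = 3 each), and their ranges were apart.
ARNTL2, the paralog of ARNTL, was the more abundant of that pair at 71.4 ± 2.42 CPM in control and moved by 0.12 with EC359 and -0.17 with trametinib on the log2 scale (edgeR, adjusted p = 0.00307 and 0.000191). CIART, which encodes an inhibitor of the CLOCK and ARNTL pair, rose with the combination by a log2 fold change of 1.27 and with EC359 by 0.95. CIPC, another inhibitor of CLOCK, fell by 0.83 with EC359 and by 1.14 with the combination on the log2 scale. RORB rose with the combination from 1.02 ± 0.11 to 2.44 ± 0.221 CPM (SD, n = 3 each).

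Genes that act on clock proteins, such as kinases, ubiquitin ligases and cofactors, formed a list of which 18 were tested. With EC359, 10 were higher and 2 were lower, against 30.8% and 30.3% of all genes. The counts were 4 and 2 for trametinib, against 13.0% and 15.2%, and 11 and 4 for the combination, against 35.0% and 34.7%. None of the 18 reached 2-fold in any of the 3 comparisons. Their median log2 fold changes were 0.13, 0.01 and 0.17. Of the 9 clock output genes reported here, 9 were higher with EC359 and 4 reached 2-fold, where 30.8% and 4.19% of all genes were. These 9 are not the whole list, and their counts are given as a description. KLF9, which encodes a transcription factor responsive to glucocorticoid, rose from 1.63 ± 0.139 to 11.8 ± 0.434 CPM with EC359 and 11.6 ± 0.593 with the combination (SD, n = 3 each). The others were NOCT, encoding the rhythmic phosphatase nocturnin, TSC22D3 and PDK4, with log2 fold changes of 1.63, 1.55 and 1.03. PDK4 was under 1 CPM in its control and EC359 libraries, and its interval ran from 0.26 to 1.80. In the combination the same count of 9 was higher, where 35.0% of all genes were, and WEE1, which encodes a kinase that restrains entry into mitosis, joined those past 2-fold at a log2 fold change of 1.22. With trametinib 3 were higher and 2 were lower (KLF10 and NAMPT), against 13.0% and 15.2% of all genes, and PDK4, at under 1 CPM in its trametinib libraries, was the 1 gene past 2-fold.
Acutely inducible genes that mark signals able to reset the clock formed a list of 12. The list was chosen with earlier results of these data known, and its counts are given as a description. With EC359, 11 were higher, 10 of which passed 2-fold, where 30.8% of all genes were higher and 4.19% passed 2-fold. The list median was 2.64 on the log2 scale. The largest of these changes were in FOSB at 5.61, EGR1 at 4.90 and FOS at 4.89, followed by NR4A2, JUNB, DUSP1, NR4A3, NR4A1, SGK1 and SIK1 down to 1.18. With trametinib 0 were higher and 6 were lower, against 13.0% and 15.2% of all genes, and of these EGR1 and FOS fell by at least 2-fold. In the combination 11 were higher and FKBP5 was lower, against 35.0% and 34.7% of all genes, with a median of 2.12. EGR1 was at 6.9 ± 0.976 CPM in control libraries, 207 ± 3.63 CPM in EC359 libraries, 0.329 ± 0.144 CPM in trametinib libraries and 8.54 ± 1.01 CPM in combination libraries (SD, n = 3 each). SIK1, which encodes a kinase that limits resetting, was at 8.2 ± 1.43, 18.6 ± 2.09, 4.6 ± 0.239 and 19.9 ± 0.704 CPM in the same order.

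**Figure D5:**
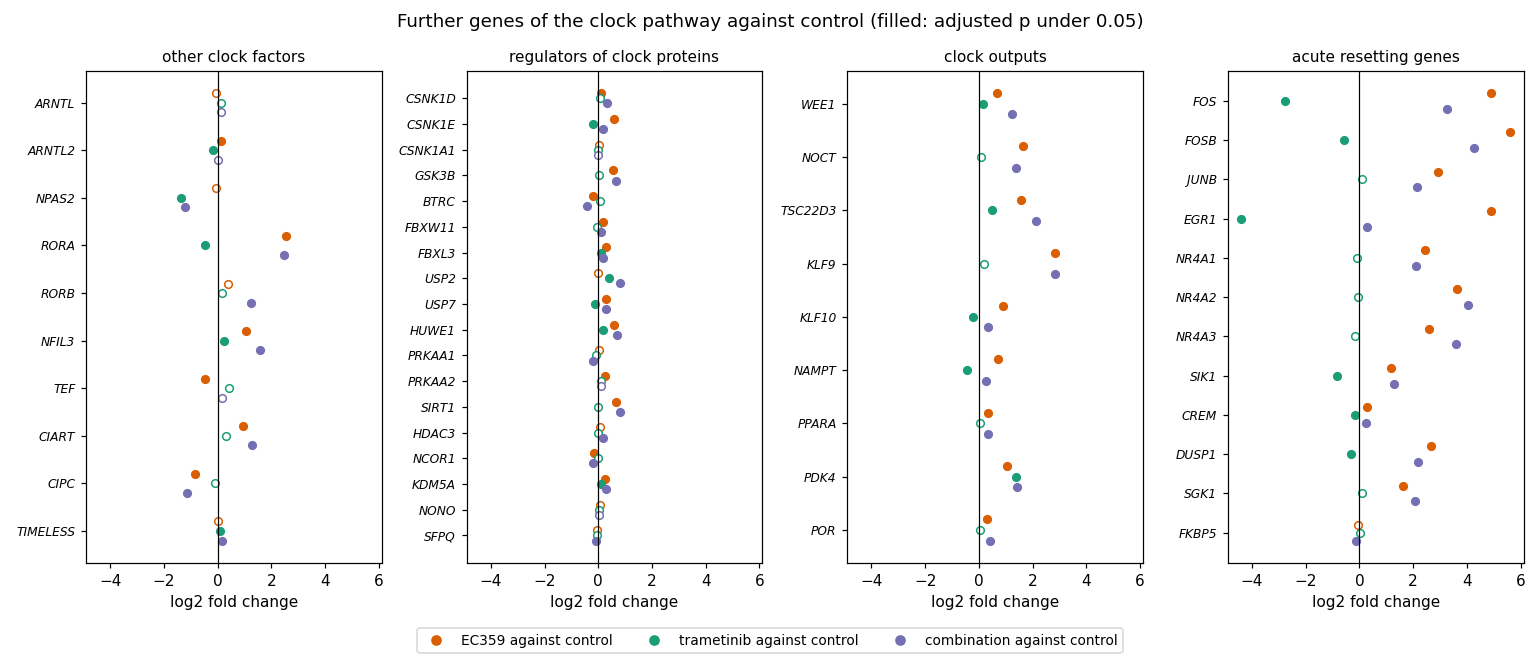
Log2 fold change against control with EC359, trametinib and the combination for further genes of the clock pathway, in 4 lists. Filled points had an adjusted p-value under 0.05. Regulators of clock proteins stay within 2-fold, while acute resetting genes reach 5.61 with EC359 and EGR1 reaches -4.40 with trametinib.

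For the 2 clock genes whose condition means spanned the widest range, NR1D1 and BHLHE40, the genes with the most similar pattern were sought among 9399 genes of at least 10 CPM on average. The measure was Pearson's r of log2 CPM over the 12 libraries, which fall into 4 conditions, so r mostly describes the order of the condition means. For NR1D1 these were KDM7A, XBP1 and CEBPB, with r of 0.993, 0.992 and 0.991. KDM7A, which encodes a histone demethylase, had mean levels of 6.84, 32.2, 6.18 and 19 CPM in the control, EC359, trametinib and combination libraries. For BHLHE40 they were SQLE, ELMSAN1 and AXIN1, with r of 0.998, 0.987 and 0.986. SQLE, which encodes an enzyme of cholesterol synthesis, had means of 63.3, 115, 64.5 and 73.7 CPM in the same order, a smaller span than that of BHLHE40.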

How the data were processed

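The authors' deposited files hold estimated counts (expected counts) for 1 library each, without normalization. Per the file headers, featureCounts 1.5.0-p1 assigned paired, reverse-stranded reads with a mapping quality of at least 2 to exons (UCSC hg38) by strand, and split as fractions any read placed or annotated more than once. The submitters' processing notes also name bcl2fastq and HISAT2. Fractions occurred in some libraries of NR1D2, PER3, CRY1, CLOCK and BHLHE40.

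Values were rounded, filtered with filterByExpr (minimum count 10, minimum total 15) and scaled by TMM (factors 0.947 to 1.06). All 4 conditions were fitted in 1 robust quasi-likelihood model with edgeR 4.0.16 in R 4.3.3, without a replicate block. P-values were adjusted by Benjamini-Hochberg over 14865 genes. Intervals are 95% confidence intervals from that model, and RPKM uses the exon length in the files. A count of 0 allows up to 3 counts, or 0.0883 to 0.127 CPM, for counting error only. Libraries of a condition differed by more than sampling noise (chi-square per degree of freedom at least 2.72). Each was counted as 1 sample, although this spread cannot show whether they were separate cultures. The functions that fit the models were checked on simulated data.

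The clock genes, the further lists and the rule for named genes (all 10 clock genes, genes of the further lists changed at least 2-fold, partners and paralogs, and the 3 most similar genes of 2 members) were chosen with earlier results of these data known. Remarks on FKBP5, COL1A1, KLF10, NAMPT, KRT7, KRT8, KRT18, PAX8, WT1 and EPCAM were added after their values were seen. A gene of the clock factor list and a gene of the output list are not reported here, and the counts of these lists were recomputed without them. Promoter sequences came from RefSeq (GRCh38.p14), where all 10 genes matched. Alternatives were DESeq2 1.42.0, its size factors, total counts, other filters, only the groups compared, a replicate block, glmTreat against 1.5-fold, and each library left out.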

Additional observations from a re-analysis of the deposited data

Results flagged for a closer look

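In 3 of the 10 clock genes, 1 higher and 2 lower, the effect of one agent differed with and without the other, by the interaction term of edgeR's quasi-likelihood fit. Over all genes tested 14.4% were higher and 15.9% were lower, so the count of clock genes lies at the share of all genes. The interaction was -1.51 for BHLHE40 (adjusted p = 2.64e-36), -0.81 for NR1D1 (adjusted p = 5.39e-05) and 0.87 for CRY1 (adjusted p = 4.56e-23), each a difference of log2 effects. For BHLHE40 and NR1D1 all 3 combination libraries lay below all 3 EC359 libraries, and for CRY1 all 3 combination libraries lay above the 9 others. When each library was left out in turn the values lay between -1.52 and -1.48, between -0.98 and -0.64, and between 0.84 and 0.89. Tested against 1.5-fold with glmTreat, the interactions of BHLHE40 and CRY1 still passed and that of NR1D1 did not. The cause was not tested.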

How the results depend on the processing

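Over the 10 genes and 6 comparisons, 836 log2 fold changes from alternatives kept their direction and side of the threshold, 24 lost the threshold, 14 gained it and 16 changed sign, all 16 in values that had not passed. DESeq2, its size factors, the absence of a filter and the replicate block changed no call. Deviations of samples with the same replicate number correlated by -0.0669 to 0.0304, and 1 of 12 libraries correlated best with its own number. With 3 libraries per condition this cannot show whether samples of the same number shared a culture or a batch. With the replicate block the counts of clock genes called against control were still 5 and 2 for EC359, 1 and 2 for trametinib, and 6 and 2 for the combination.

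With total counts only, 3 genes were higher with trametinib and 2 were lower in the combination than with trametinib, CRY2 being the added gene at -0.32 (adjusted p = 0.0131). Signs changed for PER3 (-0.0385) and CRY2 (-0.0137) in the combination against control, and for PER2 (-0.1225) and PER3 (-0.0125) against trametinib. With only the groups compared, 2 genes were higher with trametinib. With at least 10 counts in every library, 2 interactions were higher. Tested against 1.5-fold with glmTreat, CRY1, CLOCK and DBP lost their calls with EC359, which left 0 lower. With trametinib 0 were higher and 0 lower. The combination had 3 higher and 0 lower than control, as CRY1, CLOCK, BHLHE40, PER2 and DBP lost their calls. It had 0 higher than with EC359, and 3 higher and 0 lower than with trametinib. The NR1D1 interaction was lost, which left 1 lower. For the counts of this section the shares of all genes are not given, so they show only which calls held.

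Leaving out each library gave 1 to 2 genes lower with EC359 (1 without control 1, EC359 1 or EC359 2), 0 to 2 higher with trametinib (0 without trametinib 2, 2 without control 3 or trametinib 1) and 1 to 2 higher interactions (2 without control 2 or combination 1). Lower interactions numbered 2 to 3 (3 without control 3 or EC359 3). It moved the log2 fold change across 0 for PER3 with EC359 (-0.12 to 0.0742), for PER3 (-0.13 to 7e-04), NR1D2 (-0.0111 to 0.0657), DBP (-0.0202 to 0.15) and NR1D1 (-0.25 to 0.0874) with trametinib, for CRY2 in the combination against EC359 (-0.17 to 0.0028) and for PER2 in the combination against trametinib (-0.0948 to 0.27). CLOCK became higher in the combination than with EC359 without EC359 3 or combination 2 (edgeR, adjusted p = 0.0472 and 0.0225). CRY2 became higher with EC359 than in control without EC359 3 (edgeR, adjusted p = 0.0447). Counts of 32 to 99 reads per library limit PER2 and DBP.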
